A study of Mus musculus with 3 samples.

Results

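The transcripts of 3 tissue inhibitors of metalloproteinases (TIMPs) and 7 matrix-cutting proteinases were followed through healing mouse skin wounds, 10 genes of the 32285 in the count tables. The members were chosen by name: the inhibitors *Timp1*, *Timp2* and *Timp3*, the aggrecanase-type ADAMTS genes *Adamts1*, *Adamts4* and *Adamts5*, the procollagen N-proteinase genes *Adamts2* and *Adamts14*, the cartilage oligomeric matrix protein-cleaving *Adamts12*, and the transmembrane metalloproteinase *Adam12*. All 10 were found by Ensembl identifier. Cells came from skin wounds of C57BL/6J mice on Day 3, Day 7 and Day 14 after injury, and no transgene or treatment is named for any group. The mice were males of 7 to 12 weeks. Full-thickness wounds were punched into the dorsal skin, while the series text calls the injury incisional. Each day was 1 single-cell library made from 4 pooled wound samples without a sort, which leaves the comparisons between days without replicates, and day and library cannot be told apart. In the whole-library levels, fewer cells of a type and less RNA per cell cannot be told apart either, so levels are given within cell classes. Intact skin was not analysed here.

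TIMPs are small secreted proteins that sit in the active site of metalloproteinases and block them. TIMP1 and TIMP2 act mainly on the matrix metalloproteinases, whereas TIMP3 binds to the matrix and also blocks several ADAM and ADAMTS enzymes, including the aggrecanases. ADAMTS1, ADAMTS4 and ADAMTS5 cut large proteoglycans such as versican and aggrecan. ADAMTS2 and ADAMTS14 remove the amino-terminal propeptide of fibrillar procollagens, a step needed for ordered fibrils, and ADAM12 is a membrane-anchored sheddase known from mesenchymal cells that form scar and fat.

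The levels below are unique molecular identifiers (UMIs, tags that mark single captured transcripts) summed over the cells of a class in a library, per 1000000 UMIs of that sum (CPM). Intervals in brackets are 95% intervals for counting error alone (exact Poisson for a level, exact binomial for a ratio or a share), and no tissue variation is in them. After filtering, 4360, 19590 and 13510 cells remained for Days 3, 7 and 14. Cell classes were set from standard markers with the members left out of the clustering. The libraries shared 43 (Days 3 and 7), 19 (Days 3 and 14) and 111 (Days 7 and 14) barcodes, at most 0.834% of the smaller library. Fibroblast-like cells, which carried all 8 fibroblast markers, numbered 405, 5239 and 6593, with a median of 43972, 10327 and 10297 UMIs per cell. The summed level of those 8 markers was itself lower on Day 3 (6155 CPM) than on Day 7 (13590 CPM) and Day 14 (17669 CPM). Most of the class lay in different clusters on each day. Of the Day 3 cells, 365 lay in cluster 14, led by *Cxcl5* and *Saa3*. On Day 7, 2162 cells lay in cluster 3 and 1700 in cluster 7, and on Day 14, 3736 lay in cluster 0, led by *Mgp* and *Cilp*, and 1461 in cluster 8. Cluster 20 (573 cells on Day 7, 27 on Day 14, none on Day 3, or 2.92% and 0.200% of all cells on Days 7 and 14), led by *Tnn*, *Col7a1* and *Crabp1* and rich in *Tagln*, also carried all 8 fibroblast markers but stayed unnamed, because *Crabp1* is a marker of another class. It is described by its number. Pericyte-like cells numbered 10, 180 and 429, and their Day 3 level was not used.

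The 10 genes lie at scattered places in the mouse genome (GRCm38, the mm10 build of the tables, positions from GENCODE M21), except that *Adamts1* (chr16:85793827-85803113, minus strand) and *Adamts5* (chr16:85856173-85901828, minus strand) are neighbours with a gap of 53.1 kb. *Timp1* lies at chrX:20870166-20874735 and *Timp3* at chr10:86300372-86349506, both on the plus strand, and *Timp2* at chr11:118301069-118355740 on the minus strand. *Adamts4* lies at chr1:171250421-171260637 on the plus strand. *Timp1* overlaps *Syn1* and *Timp3* overlaps *Syn3*, both on the opposite strand, and over all cells *Syn1* and *Syn3* held 451 and 939 UMIs. RefSeq promoter windows (GRCm38.p6, 250 bases before to 50 after a start) were on hand for 7 of the 10 members. The 4 below are shown as those of the inhibitors, which followed 3 different courses, and of *Adamts1*, one of the proteinases with its highest level in another cell class. Capitals mark the GC box core (GGGCGG, or CCGCCC on the other strand) and the TATA box (TATAAA, or TTTATA on the other strand).
*Timp1* promoter, chrX:20869916-20870215, plus strand: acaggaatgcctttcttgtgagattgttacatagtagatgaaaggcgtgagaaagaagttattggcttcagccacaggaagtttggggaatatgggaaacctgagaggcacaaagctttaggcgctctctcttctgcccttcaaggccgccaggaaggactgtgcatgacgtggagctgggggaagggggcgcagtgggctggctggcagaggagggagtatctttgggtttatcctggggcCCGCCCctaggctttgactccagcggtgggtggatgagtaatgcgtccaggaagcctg
*Timp2* promoter, chr11:118355362-118355661, minus strand: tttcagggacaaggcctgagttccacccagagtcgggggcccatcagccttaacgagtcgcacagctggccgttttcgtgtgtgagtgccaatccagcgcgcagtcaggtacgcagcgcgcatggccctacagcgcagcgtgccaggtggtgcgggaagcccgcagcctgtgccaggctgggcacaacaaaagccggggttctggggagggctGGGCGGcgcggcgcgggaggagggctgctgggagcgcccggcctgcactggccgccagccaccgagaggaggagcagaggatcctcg
*Timp3* promoter, chr10:86300162-86300461, plus strand: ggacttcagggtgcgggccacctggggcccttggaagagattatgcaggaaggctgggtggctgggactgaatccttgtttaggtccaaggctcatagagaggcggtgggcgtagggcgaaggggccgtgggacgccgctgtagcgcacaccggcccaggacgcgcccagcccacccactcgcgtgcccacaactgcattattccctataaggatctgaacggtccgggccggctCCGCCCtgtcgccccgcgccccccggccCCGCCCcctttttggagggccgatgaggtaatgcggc
*Adamts1* promoter, chr16:85803064-85803363, minus strand: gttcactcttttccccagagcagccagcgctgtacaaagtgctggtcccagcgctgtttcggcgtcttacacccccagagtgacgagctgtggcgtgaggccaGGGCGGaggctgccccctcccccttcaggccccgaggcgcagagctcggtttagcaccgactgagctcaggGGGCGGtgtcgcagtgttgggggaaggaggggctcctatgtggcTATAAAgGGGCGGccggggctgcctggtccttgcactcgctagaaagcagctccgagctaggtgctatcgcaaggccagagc

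Of the 7 member windows 6 held at least 1 GC box core, the 4 shown among them, with 3 in *Adamts1*. The *Adamts12* window held 0 GC box cores and 0 TATA boxes. A GC box core stood in 35.7% of the 32851 promoter windows of the reference. The *Adamts1* window also held TATAAA 32 bases before the start, a motif present in 13.6% of windows on either strand. The AP-1 letters TGANTCA, found in 7.81% of windows, were in none of the 7 member windows. These matches describe letters only.

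The inhibitors changed places in fibroblast-like cells. *Timp1*, the inhibitor of most secreted matrix metalloproteinases that is induced by growth factors, measured 3741 CPM (3714 to 3768), 801 CPM (794 to 809) and 471 CPM (466 to 477) in the libraries of Days 3, 7 and 14. It was highest on the first day sampled and 4.67-fold lower on Day 7 (log2 ratio -2.22, -2.24 to -2.21). From Day 7 to Day 14 it was a further 1.70-fold lower. *Timp2*, known both as an inhibitor and as the partner through which membrane-type MMP14 activates pro-MMP2, went the other way, with 353 CPM (345 to 362), 1671 CPM (1660 to 1682) and 2049 CPM (2039 to 2060). Its Day 7 level was 4.73-fold that of Day 3 (log2 ratio 2.24, 2.21 to 2.28). *Timp3*, the matrix-bound inhibitor of aggrecanases, stood at 140 CPM (135 to 145), 191 CPM (187 to 194) and 377 CPM (373 to 382), highest on the last day. Its larger step came between Day 7 and Day 14 (1.98-fold, log2 ratio 0.98, 0.95 to 1.02), just under the 2-fold line.

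**Figure D1:**
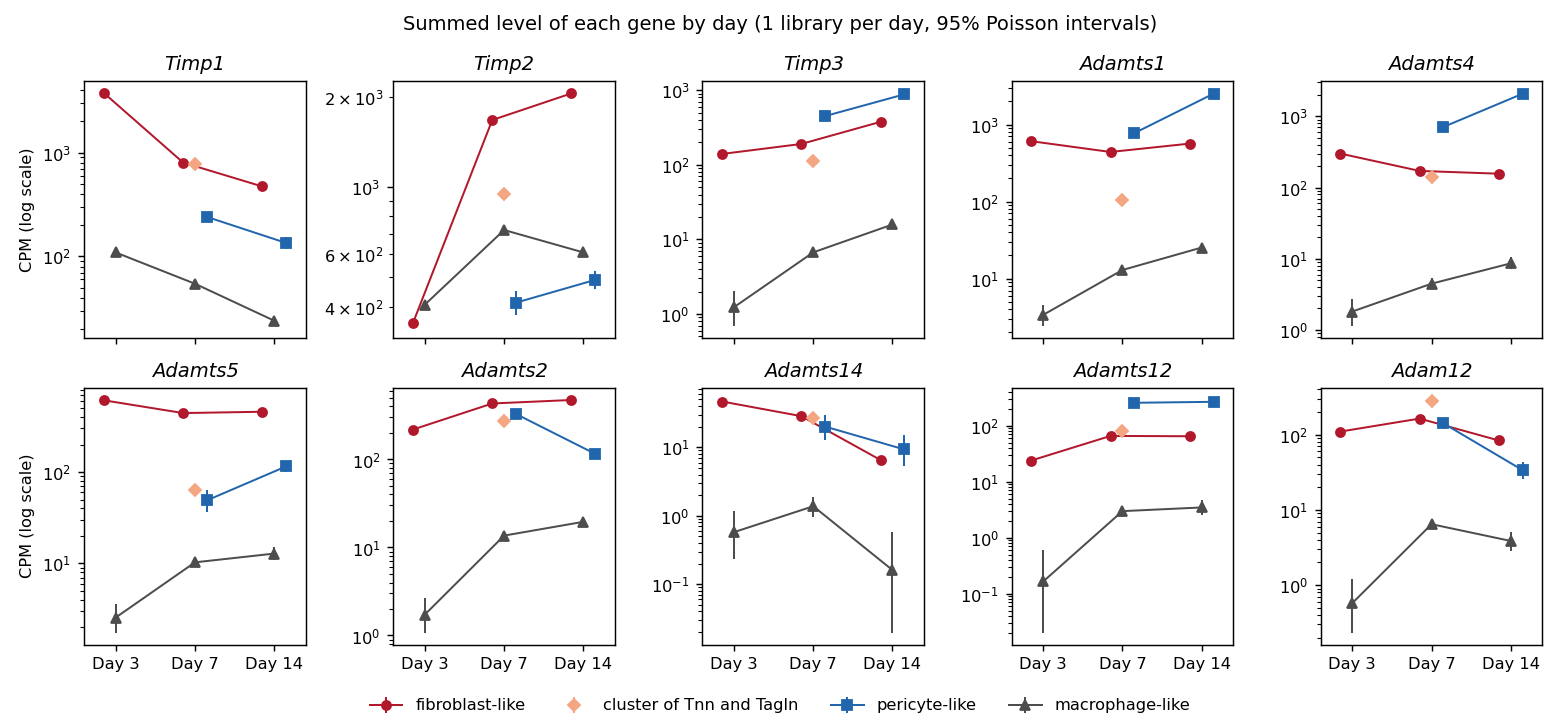
Summed level of each of the 10 genes in CPM (vertical log axis, scale differs by panel) on Days 3, 7 and 14, for fibroblast-like cells (red circles), cluster 20 (orange diamonds), pericyte-like cells (blue squares) and macrophage-like cells (grey triangles), 1 library per day, with 95% Poisson bars and only classes with at least 50 cells. In fibroblast-like cells *Timp1* runs from 3741 down to 471 CPM while *Timp2* runs from 353 up to 2049 CPM, and pericyte-like cells lie above fibroblast-like cells for *Timp3*, *Adamts1*, *Adamts4* and *Adamts12*.

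Of the UMIs of the 3 inhibitors in fibroblast-like cells, *Timp1* made up 88.4%, 30.1% and 16.3% on the 3 days in order, while *Timp2* made up 8.34%, 62.7% and 70.7%. These are shares of captured 3′ ends, not values per length, and what they show is how the mix differed between days. The 3 inhibitors together stood at 4234, 2663 and 2898 CPM and the 7 proteinases at 1917, 1744 and 1808 CPM, or 2.21, 1.53 and 1.60 inhibitor UMIs per proteinase UMI. The sum of the proteinases therefore differed less between days than did that of the inhibitors. The 7 proteinases include no matrix metalloproteinase, the main targets of TIMP1 and TIMP2. The UMI ratio is thus not a balance of inhibitors and their targets.

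The opposite courses of *Timp1* and *Timp2* were also seen inside the 1 cluster that held over 100 cells on both Day 3 (365) and Day 7 (475). In cluster 14 the log2 ratio of Day 7 over Day 3 was -1.61 (-1.64 to -1.57) for *Timp1* and 1.18 (1.13 to 1.24) for *Timp2*, each smaller than over the whole class. That of *Timp3* was 0.08 (-0.03 to 0.19), which spans no difference, against 0.44 over the class. The shares of cells with a UMI, after thinning every cell to 500 UMIs, went with the levels. They were 76.0%, 24.5% and 16.5% for *Timp1* on Days 3, 7 and 14 and 18.0%, 53.9% and 59.9% for *Timp2* (unthinned 99.5%, 88.5% and 77.7%, and 97.5%, 99.3% and 99.2%).

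In CPM the 3 aggrecanase-type genes had their highest level on Day 3, which for *Adamts1* depended on the scaling. *Adamts1*, whose product cuts versican and also binds vascular endothelial growth factor, had levels of 608 CPM (597 to 619), 440.4 CPM (435 to 446) and 566 CPM (560.1 to 571.3) on Days 3, 7 and 14. *Adamts5*, its chromosomal neighbour and a main aggrecan- and versican-cutting enzyme, stood at 609.8 CPM (599 to 621), 442 CPM (437 to 448) and 457 CPM (452 to 462). The log2 ratio of Day 7 over Day 3 was -0.46 for both neighbours. For *Adamts1* the steps to Day 7 and on to Day 14 were -0.28 and 0.53 with median-of-ratios scaling, and -0.27 and 0.36 with the 50 most abundant genes left out of the total, which puts Day 14 above Day 3. *Adamts4*, the aggrecanase induced by inflammatory cytokines, stood at 299.7 CPM (292 to 308), 171 CPM (168 to 175) and 157 CPM (154 to 159), with its first interval apart from the later ones. Its Day 7 level was 1.75-fold lower than that of Day 3. Inside cluster 14 the log2 ratio of Day 7 over Day 3 was -0.90 for *Adamts1*, -0.99 for *Adamts5* and -0.97 for *Adamts4*. Each was a larger step than over the whole class.

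The procollagen N-proteinase genes differed from each other. *Adamts2* had 219 CPM (212 to 225), 432 CPM (427 to 438) and 474 CPM (469 to 479) on Days 3, 7 and 14, and was 1.98-fold higher on Day 7 than on Day 3. *Adamts14*, which has the same substrates, was at 46.7 CPM (43.7 to 49.8), 28.5 CPM (27.1 to 29.95) and 6.52 CPM (5.93 to 7.15). It was lower on each later day, and 4.38-fold lower on Day 14 than on Day 7 (log2 ratio -2.13, -2.28 to -1.98). With the full expected doublet rate removed the step from Day 7 to Day 14 was -1.37 and that from Day 3 to Day 7 was -1.47 instead of -0.71. Inside cluster 14 the ratio of Day 7 over Day 3 was -0.12 (-0.32 to 0.07), which spans no difference. *Adamts12* stood at 23.8 CPM (21.7 to 26.1), 65.5 CPM (63.4 to 67.7) and 64.7 CPM (62.8 to 66.6), so that Days 7 and 14 lay within each other's interval. *Adam12* was highest on Day 7, with 110.1 CPM (105 to 115), 164 CPM (160.5 to 167) and 83.7 CPM (81.6 to 85.9), and was 1.96-fold lower on Day 14 than on Day 7. The fibrillar procollagens, substrates of the N-proteinases, had 1 of 7 measured genes at least 2-fold higher on Day 7 than on Day 3 (*Col11a1*, beside 7.74% of all genes). *Col1a1* itself stood at 22762, 42429 and 51984 CPM.

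Counted by size, 2 of the 10 members (*Timp2* and *Adamts12*) were at least 2-fold higher on Day 7 than on Day 3, beside 7.74% of the 12144 genes with a mean of at least 1 CPM, and 1 member (*Timp1*) was at least 2-fold lower, beside 10.0% of those genes. From Day 7 to Day 14 no member was at least 2-fold higher (3.98% of 12193 genes were), and 1 (*Adamts14*) was at least 2-fold lower, beside 7.08%. The median log2 ratio of the members was -0.01 and 0.01 in these comparisons, and that of all genes was -0.17 in both. The side of the 2-fold line on which *Timp3*, *Adamts2*, *Adam12*, *Adamts4* and *Adamts14* stood in 1 of these comparisons depended on the processing. *Adamts4* and *Adamts14* were past it downward from Day 3 to Day 7, for 3 members lower in all, with a mitochondrial limit of 5% (-1.06 and -1.02) or 20% (-1.12 and -1.21) and with the full expected doublet rate removed (-1.09 and -1.47). With cluster 20 counted as fibroblast-like, an alternative chosen after the data were seen, *Timp3* was past the line upward and *Adam12* past it downward from Day 7 to Day 14.

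The 10 genes were spread unevenly over the fibroblast clusters of Day 7. Cluster 3, with 2162 cells, led by *Akr1c18* and *Pla1a* and also marked by *Pi16* and *C3*, had the highest *Timp2* (2474 CPM), *Timp3* (247 CPM), *Adamts1* (518 CPM) and *Adamts5* (677 CPM) and the lowest *Adam12* (73.6 CPM). Cluster 20 lay at the other end for *Timp3* (112 CPM), *Adamts1* (106 CPM), *Adamts5* (63.2 CPM) and *Adamts2* (274 CPM), and had the highest *Adam12* (279.6 CPM). Compared with fibroblast-like cells of the same library, cluster 20 was 6.99-fold lower in *Adamts5* (log2 ratio -2.81, -2.95 to -2.66), 4.15-fold lower in *Adamts1* (-2.05, -2.16 to -1.94) and 1.71-fold higher in *Adam12* (0.77, 0.70 to 0.84). *Timp1* and *Adamts14* were within 1.06-fold of the class there.

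*Timp1* was highest in cluster 14 (1268 CPM), led by *Cxcl5* and *Saa3*, and cluster 7 (1081 CPM), led by *H19* and *Il1rl1*, and lowest in cluster 15 (400.5 CPM), led by *Gdf10*. *Adamts14* was high in the same clusters, at 45.6 CPM in cluster 7 and 42.2 CPM in cluster 14, against 11.2 to 15.6 CPM in clusters 0, 3 and 15. *Adamts12* was highest in cluster 0 (114 CPM) and lowest in cluster 14 (51.1 CPM). On Day 14 *Adamts5* differed widely, with 974 CPM in cluster 3, 394 CPM in cluster 0 and 206 CPM in cluster 8. *Timp1* on that day ran from 157 CPM in cluster 8 to 591 CPM in cluster 0.

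**Figure D2:**
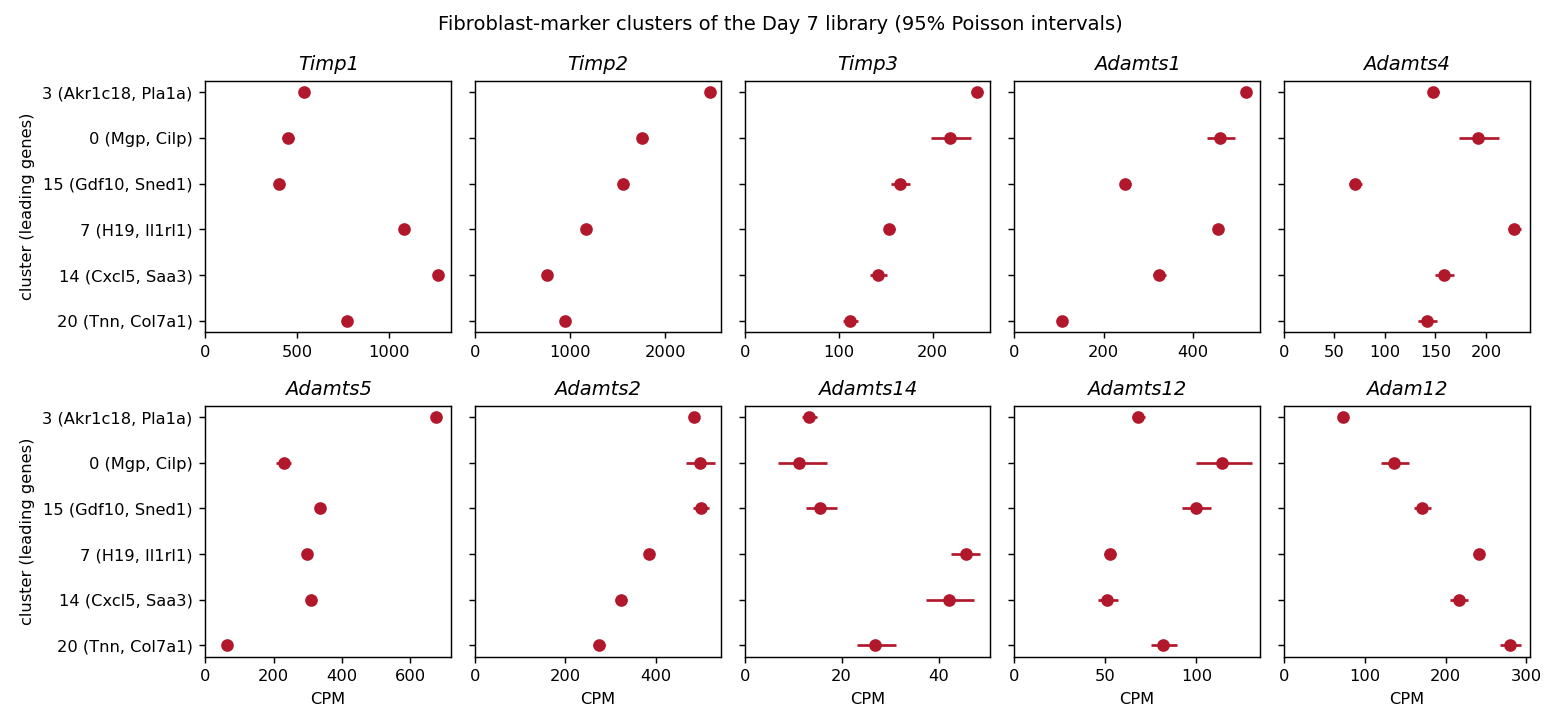
Level in CPM (horizontal axes from 0) of each of the 10 genes in the 6 clusters of the Day 7 library that carried all 8 fibroblast markers and held at least 100 cells, without the low-UMI cluster 13. Points are sums over the cells of a cluster with 95% Poisson bars. *Adamts5* runs from 63.2 CPM in cluster 20 to 677 CPM in cluster 3, while *Adam12* runs from 73.6 CPM in cluster 3 to 279.6 CPM in cluster 20.

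Of the clusters with over 100 cells on both Days 7 and 14, 3 lay in the fibroblast-like class. Inside them *Timp3* was higher on Day 14 than on Day 7, with log2 ratios of 0.99, 0.78 and 0.75 in clusters 0, 3 and 15. *Adamts14* was lower in clusters 0 (-0.94, -1.59 to -0.22) and 3 (-1.26, -1.68 to -0.86), while its ratio in cluster 15 (-0.72, -1.90 to 0.26) spans no difference. *Adam12* was lower in all 3 clusters (-0.44, -0.90 and -0.58), by less than over the whole class. *Timp1* was higher in cluster 0 on Day 14 (0.39) and lower in clusters 3 and 15 (-0.46 and -0.55), against -0.77 over the class. For some members the clusters went another way than the class. *Timp2*, at 0.29 over the class, was lower on Day 14 in cluster 0 (-0.10, -0.15 to -0.05). It was higher in clusters 3 and 15 (0.44 and 0.20). *Adamts5* was higher on Day 14 in clusters 0, 3 and 15 (0.78, 0.53 and 0.59), with intervals clear of 0, where the class ratio was 0.05. *Adamts2* was lower in these 3 clusters (-0.14, -0.37 and -0.19), also with intervals clear of 0, where the class ratio was 0.13. *Adamts12*, at -0.02 over the class, was lower in clusters 0 and 3 (-0.73 and -0.20), and its ratio in cluster 15 (-0.23, -0.58 to 0.10) spans no difference. The low-UMI cluster 13 (359 and 470 cells), which carried fibroblast markers but stayed outside the class, differed from these in some members. There *Adamts2* was higher on Day 14 (1.34, 1.06 to 1.63), as was *Adamts12* (1.03, 0.37 to 1.73). *Timp1* was lower in cluster 13 (-1.41, -1.67 to -1.14), as in clusters 3 and 15. *Timp3* and *Adamts5* were higher (1.15 and 1.04), as in clusters 0, 3 and 15.

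*Acta2*, the smooth muscle actin gene used as a marker of myofibroblasts, was left out of the clustering, and Day 7 cells were split by it after thinning to 2000 UMIs, with cluster 20 included. Of these cells, 4793 had no *Acta2* UMI, 776 had 1 to 4 and 187 had 5 or more. Cells of cluster 20 numbered 198, 257 and 112 in these bins in order, so the bins overlap with that cluster. A total of 121 cells lay at 4 or 5 UMIs, next to the upper limit, so the bins are ranges and not cell types. *Adamts5* stood at 456 CPM in cells without *Acta2*, 212 CPM in the middle bin and 64.4 CPM in the top bin, 7.09-fold lower at the top than without. *Adamts1* ran 448, 254 and 148 CPM and *Timp2* 1753, 979.6 and 795 CPM, in the same order. *Timp3* (192, 157 and 97.4 CPM) and *Adamts2* (443, 326 and 228 CPM) were also lower in each higher bin. *Adam12* ran the other way from 159 to 246 and 247 CPM, 1.55-fold higher in the top bin. *Timp1* (748, 1042 and 882 CPM) and *Adamts14* (25.8, 40.2 and 35.4 CPM) were lowest in cells without *Acta2*. *Adamts4* differed little, with 167, 178 and 148 CPM, as did *Adamts12*, with 69.0, 59.9 and 58.3 CPM. On Days 3 and 14 only 3 and 8 cells fell in the top bin, and these were not compared.

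Pericyte-like cells, which wrap small vessels and can contract, carried a different set of members. Their 8 pericyte markers summed to 10069.7 and 10368 CPM on Days 7 and 14, against 59.2 and 70.3 CPM in fibroblast-like cells. *Adamts4* measured 710.2 CPM (662 to 761) and 2081 CPM (2013 to 2149.8) in them on Days 7 and 14, against 171 and 157 CPM in fibroblast-like cells. The log2 ratio over fibroblast-like cells of the same library was 2.05 (1.95 to 2.16) on Day 7 and 3.73 (3.68 to 3.79) on Day 14, a 13.3-fold difference. In the Day 14 library the 429 pericyte-like cells, 3.18% of all cells, held 22.8% of all *Adamts4* UMIs.

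*Adamts1* stood at 773 CPM (723 to 826) and 2515 CPM (2441 to 2591) in pericyte-like cells of Days 7 and 14, 1.76-fold and 4.45-fold above fibroblast-like cells. *Adamts12* stood at 256 CPM (227 to 287) and 266 CPM (243 to 292), about equal on both days and 3.91-fold and 4.12-fold above. *Timp3* stood at 451 CPM (413 to 491) and 882 CPM (838 to 927), 2.36-fold and 2.34-fold above. The other inhibitors were lower, with *Timp2* 4.05-fold and 4.17-fold below fibroblast-like cells and *Timp1* 3.34-fold and 3.49-fold below. *Adamts5*, next to *Adamts1* on chromosome 16, was 9.04-fold below on Day 7 and 3.97-fold below on Day 14, so the neighbours went in opposite directions in this class. With doublets kept, the Day 14 log2 ratios of *Timp1* and *Timp2* were -0.91 and -1.21 instead of -1.80 and -2.06, and those of *Adamts5* on Days 7 and 14 were -2.34 and -1.26 instead of -3.18 and -1.99.

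In count, 3 of 10 members (*Timp3*, *Adamts4* and *Adamts12*) were at least 2-fold higher in pericyte-like than in fibroblast-like cells on Day 7, beside 24.0% of 12660 genes, and 3 (*Timp1*, *Timp2* and *Adamts5*) were at least 2-fold lower, beside 8.39%. On Day 14, 4 were higher, with *Adamts1* added, beside 22.7% of 12474 genes, and 5 were lower, with *Adamts2* and *Adam12* added, beside 12.6%. The share higher was thus near that of all genes on Day 7 and above it on Day 14. The shares lower were above those of all genes on both days. With 10 members, such shares rest on few genes. The median log2 ratio of the members (-0.30 and -0.40) stood below that of all genes (0.42 and 0.26). The class held only 180 cells on Day 7. Median-of-ratios scaling shifts the members and all genes by the same amount, so the distance between their medians stays. With it the median of all genes was -0.01 and -0.09, and *Timp3* was then under 2-fold on both days (2 and 3 members higher).

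**Figure D3:**
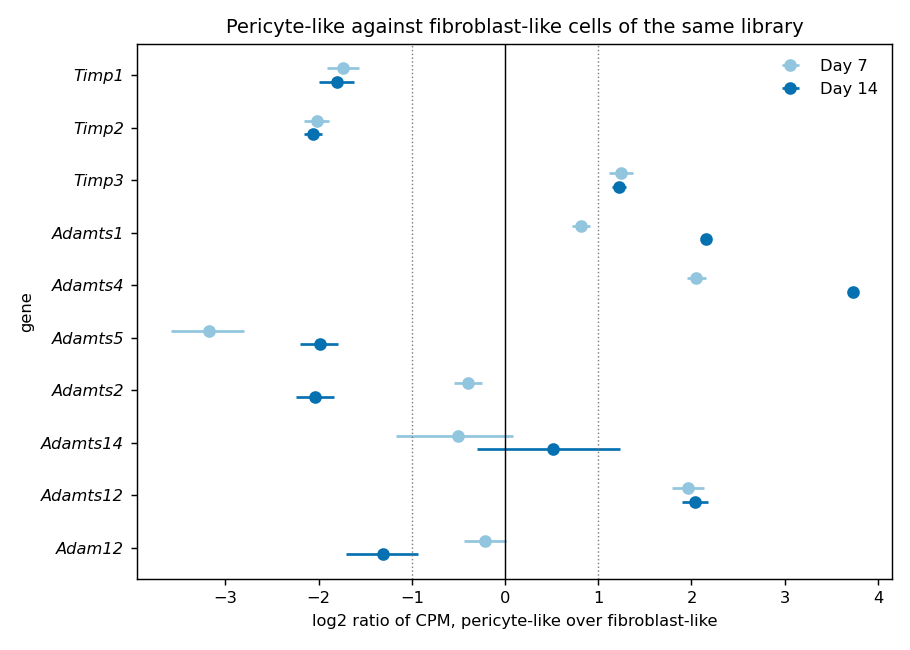
Log2 ratio of CPM in pericyte-like over fibroblast-like cells of the same library for each of the 10 genes, Day 7 in light blue and Day 14 in dark blue, with exact 95% counting intervals. Dotted lines mark 2-fold either way. *Adamts4* reaches 3.73 on Day 14, and *Adamts5* lies at -3.18 on Day 7 and -1.99 on Day 14.

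Within pericyte-like cells, Day 14 stood above Day 7 in *Adamts1* (3.25-fold), *Adamts4* (2.93-fold) and *Adamts5* (2.35-fold) and below it in *Adam12* (4.19-fold), *Adamts2* (2.84-fold) and *Adamts14* (2.16-fold, on 23 and 16 UMIs). That is 3 members at least 2-fold higher, beside 6.48% of all genes, and 3 at least 2-fold lower, beside 18.3%. The 8 fibroblast markers also differed, at 3005 CPM on Day 7 and 2068 CPM on Day 14 in this class. The 8 epithelial markers summed to 20.1 CPM (6 with UMIs) and 152 CPM (8 with UMIs) and the 10 macrophage markers to 457 and 256 CPM, and the part of these cell types in the values was not tested. Taken per UMI of the 8 fibroblast markers, *Adamts4* was 18.8 and 114 times its fibroblast-like value on Days 7 and 14. *Adamts1* was 7.94 and 38.0 times its own, *Timp3* 10.7 and 19.97 times and *Adamts12* 17.7 and 35.2 times. By contrast, *Adamts5* was 0.501 and 2.15 times and *Timp1* 1.36 and 2.45 times. The remaining members lay between or near these, with *Adamts14* at 3.19 and 12.2 times, *Adam12* at 3.91 and 3.44 times, *Adamts2* at 3.43 and 2.09 times and *Timp2* at 1.12 and 2.05 times. Early response genes, which dissociation of tissue can raise, stood at 7046 CPM on Day 7 and 11641 CPM on Day 14 in pericyte-like cells (sum of 8 genes, all with UMIs, chosen after the data were seen) and at 9239, 8389 and 9692 CPM in fibroblast-like cells of Days 3, 7 and 14. Their part in the *Adamts1* and *Adamts4* values was not tested.

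Endothelial-like cells (235 on each of Days 7 and 14) shared part of this set. *Timp3* and *Adamts4* were above their fibroblast-like levels on both days (132% and 205%, and 122% and 248%). *Adamts1* was below its own on Day 7 (67.7%) and above it on Day 14 (129%), and *Adamts12* was below on both days (23.7% and 22.0%). *Timp3* stood at 251 CPM (229 to 275) and 772 CPM (726 to 819), *Adamts1* at 298 CPM (274 to 325) and 729.7 CPM (686 to 776) and *Adamts4* at 209 CPM (188 to 231) and 389 CPM (357 to 423). All 3 were higher on Day 14, while *Adam12* was 3.16-fold lower (85.4 and 27.1 CPM). By count 2 members (*Timp3* and *Adamts1*) were at least 2-fold higher on Day 14, beside 7.41% of all genes, and 1 (*Adam12*) at least 2-fold lower, beside 11.5%. Early response genes differed in the same direction, at 5118 and 10104 CPM. So did markers of some other cell types in the endothelial-like cells. The 8 pericyte markers summed to 100.3 CPM on Day 7 and 255 CPM on Day 14 and the 8 fibroblast markers to 785 and 1289 CPM. The 8 epithelial markers summed to 33.3 and 326 CPM, and all of these had UMIs on both days. Among the lists that went the other way were macrophage (592 and 418 CPM), neutrophil (112 and 22.1 CPM) and mast cell markers (109 and 45.6 CPM). The part of early response genes and of these cell types in the 3 higher genes was not tested. On Day 14 *Timp3* was also high in Schwann-like cells (745 CPM, 142 cells). In the mesenchymal-like cells (716 cells) *Adamts1* stood at 472 CPM, 83.4% of its fibroblast-like level, and *Timp1* at 19.6 CPM.

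*Adamts14* was the only member with T cell-like levels not below those of fibroblast-like cells. It had 22 UMIs in 19 of 378 T cell-like cells on Day 7 (32.1 CPM, 20.1 to 48.5) and 12 UMIs in 12 of 314 cells on Day 14 (17.9 CPM, 9.24 to 31.2). The log2 ratio over fibroblast-like cells was 0.17 (-0.51 to 0.77) on Day 7, which spans no difference, and 1.46 (0.49 to 2.28) on Day 14. Macrophage-like cells, at 1.38 and 0.161 CPM on these days, were taken as the background level of free RNA. Their fibroblast markers were lower, however, at 462 and 600 CPM against 853 and 1019 CPM in T cell-like cells. The shares of cells with a UMI were 5.03% and 3.82% in T cell-like cells and 0.392% and 0.0614% in macrophage-like cells, whose median depths (2547.5 and 3503 UMIs) were above those of the T cell-like cells (1423 and 1808.5 UMIs). Per UMI of the fibroblast markers, *Adamts14* in T cell-like cells was 17.9 and 47.6 times its fibroblast-like value, while the other 9 members were 0.369 to 4.32 times. T cell-like cells were not alone in this on Day 14. *Adamts14* was 12.2 times in pericyte-like, 8.54 times in epithelial-like (29 UMIs in 26 of 741 cells) and 5.23 times in Schwann-like cells (2 UMIs). It was 0.728 times in macrophage-like cells and had 0 UMIs in endothelial-like cells.

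**Figure D4:**
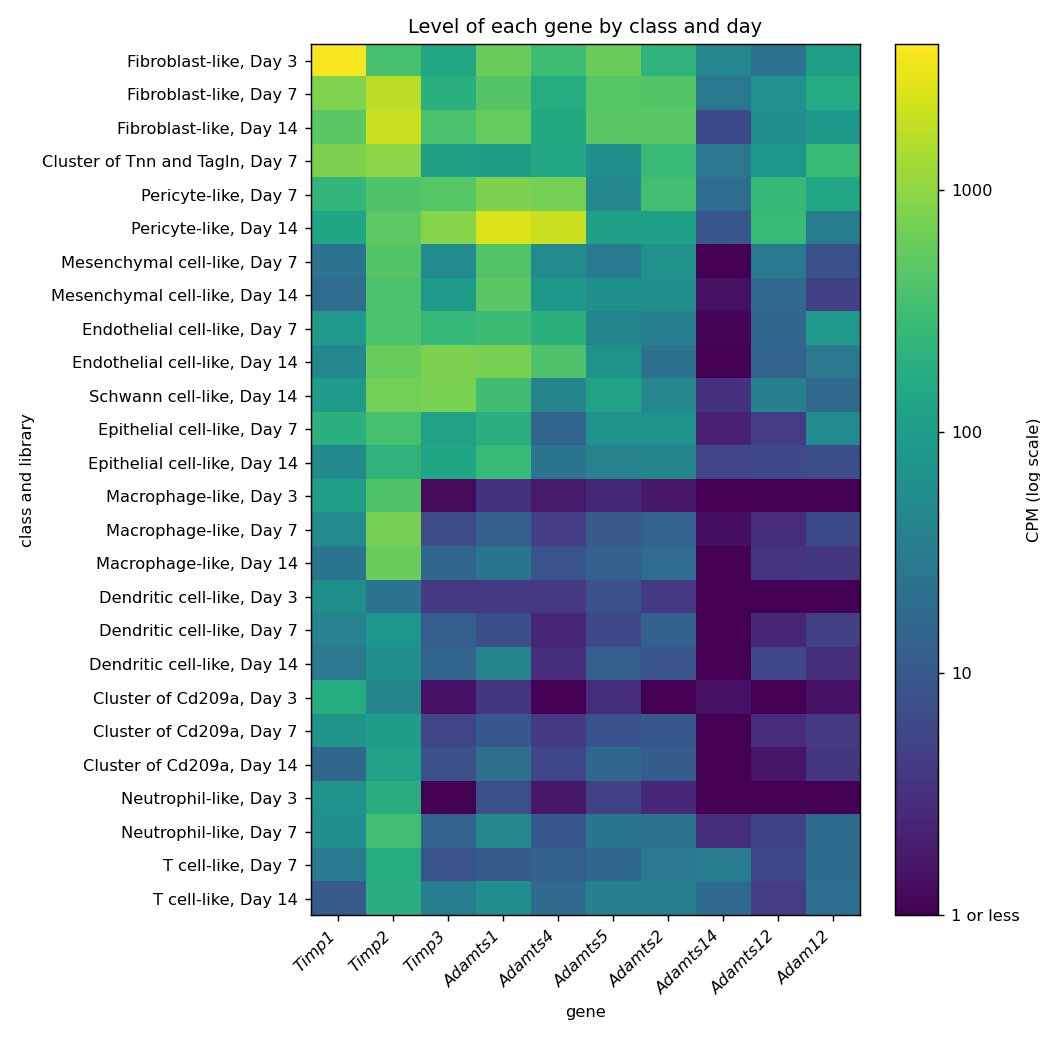
Level of each of the 10 genes (columns) in the named classes, cluster 20 and a cluster led by *Cd209a*, where they held at least 50 cells of a library (rows), coloured by CPM on a log scale, with 1 CPM or less in the darkest shade. *Timp2* is the only member over 100 CPM in all rows of macrophage-like and neutrophil-like cells, and *Adamts4* and *Adamts1* peak in pericyte-like cells of Day 14 at 2081 and 2515 CPM.

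*Timp2* had the highest level of the 10 genes in macrophage-like cells on each day. Its levels were 406 CPM (395 to 418), 719 CPM (709 to 729) and 606 CPM (592 to 620) in the 3 libraries in order of day, and on Day 3 it was 1.15-fold that of fibroblast-like cells. In the Day 3 library macrophage-like cells held 40.4% of all *Timp2* UMIs and fibroblast-like cells 56.4%, against 4.81% and 91.3% on Day 14. Per UMI of the fibroblast markers the *Timp2* value in macrophage-like cells was 176, 12.7 and 8.71 times that of fibroblast-like cells. The 7 proteinases and *Timp3* were 0.642 to 1.90 times theirs on the 3 days, and *Timp1* was 4.47, 2.002 and 1.505 times. On Day 3 *Timp1* in macrophage-like cells stood at 2.92% of its fibroblast-like CPM, where the fibroblast markers stood at 0.652% of theirs.

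By count 7 members (*Timp3*, *Adamts1*, *Adamts4*, *Adamts5*, *Adamts2*, *Adamts12* and *Adam12*) were at least 2-fold higher in these cells on Day 7 than on Day 3, beside 9.09% of all genes, and the 8 fibroblast markers went with them, from 40.1 to 462 CPM. The levels were low, as the 7 proteinases together held 131 UMIs on Day 3 (10.8 CPM) and 1436 on Day 7 (52.1 CPM). On Day 3 *Adamts12* had 2 UMIs (0.165 CPM) and *Adam12* 7 (0.577 CPM), so both passed the 1 CPM mean only through Day 7. No member was at least 2-fold lower, beside 4.8%. From Day 7 to Day 14 *Timp3* was at least 2-fold higher (beside 4.81% of all genes) and *Timp1* at least 2-fold lower (beside 5.38%), the latter from 54.6 to 24.1 CPM. The part of fibroblast RNA in these counts was not tested.

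The macrophage-like clusters had the same clusters at the top and the bottom for *Timp2* on each day. Cluster 6, whose leading genes included *Cbr2*, *Cd163*, *Lyve1* and *Folr2*, known from resident tissue macrophages, stood at 989 CPM (914 to 1068), 1251 CPM (1217 to 1286) and 886 CPM (843 to 932) on Days 3, 7 and 14. Cluster 9, led by *Ly6c2* and *Ccr2*, genes of recruited monocytes, stood at 161 CPM (121 to 209), 169 CPM (154 to 184) and 139 CPM (105 to 179.5). These were the highest and the lowest of the macrophage-like clusters with at least 100 cells on every day. Cluster 2, led by *Arg1* and *Cxcr4*, which held 2235 of the 2711 macrophage-like cells of Day 3, was at 351 CPM on Day 3 and 521 CPM on Day 7, and the later clusters 1 and 5 at 768 and 879.6 CPM on Day 7. Inside cluster 6 the Day 7 level was above those of Days 3 and 14 beyond their intervals. *Timp1* had another order, with 134 CPM in cluster 2 and 31.5 CPM in cluster 6 on Day 7. In neutrophil-like cells *Timp2* stood at 175 CPM on Day 3 and 323 CPM on Day 7. That was 309.98 and 159.8 UMIs per 1000 UMIs of the macrophage markers, against 33.4 and 47.6 in macrophage-like cells. The fibroblast markers in neutrophil-like cells summed to 87.5 CPM on Day 3 and 1205 CPM on Day 7. Per UMI of the fibroblast markers, *Timp2* there was 34.9 and 2.18 times its fibroblast-like value on Days 3 and 7. The part of fibroblast RNA in these *Timp2* levels was not tested.

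**Figure D5:**
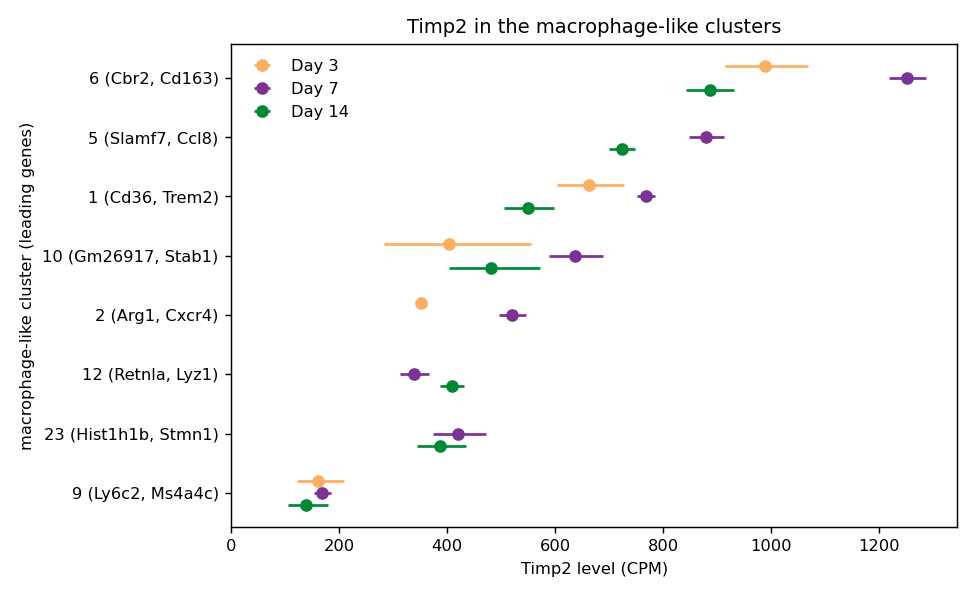
*Timp2* level in CPM (horizontal axis from 0) in the 8 macrophage-like clusters, labelled with a pair of leading genes, for each day on which a cluster held at least 100 cells, with 95% Poisson bars. Cluster 6 is highest on each day (886 to 1251 CPM) and cluster 9 lowest (139 to 169 CPM).

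The genes around the members were read from lists of the same families and their substrates in fibroblast-like cells. Of 13 other ADAMTS proteinase genes 9 were measured on Days 3 and 7, with 5 at least 2-fold higher on Day 7 (*Adamts3*, *Adamts7*, *Adamts16*, *Adamts17* and *Adamts19*, beside 7.74% of all genes) and 1 lower (*Adamts6*, beside 10.0%), and their median log2 ratio was 1.05 against -0.17 for all genes. *Adamts15*, a versican-cutting relative, had the highest mean of this list, at 148, 86.1 and 21.2 CPM on Days 3, 7 and 14. It was thus lower on each later day, as *Adamts14* was. Of 19 matrix metalloproteinase genes 12 were measured, with 5 at least 2-fold higher on Day 7 than on Day 3 (*Mmp2*, *Mmp10*, *Mmp11*, *Mmp12* and *Mmp13*, beside the same 7.74%) and none lower (beside 10.0%). From Day 7 to Day 14, 1 was higher (*Mmp16*, beside 3.98% of all genes) and 4 were lower (*Mmp9*, *Mmp10*, *Mmp12* and *Mmp13*, beside 7.08%).

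*Mmp2*, the gelatinase whose activation involves TIMP2 and MMP14, stood at 387, 1026 and 805 CPM, and *Mmp14* at 693, 994 and 599 CPM. *Vcan*, a substrate of ADAMTS1, ADAMTS4 and ADAMTS5, stood at 439, 599 and 486 CPM. Of 11 other ADAM genes 9 were measured, with *Adam9* at least 2-fold lower on Day 7 than on Day 3 (beside 10.0% of all genes) and *Adam8* on Day 14 than on Day 7 (beside 7.08%), and *Adam19*, highest in mean, at 99.5, 93.4 and 67.3 CPM. *Reck*, a membrane-bound inhibitor, stood at 10.7, 14.5 and 27.1 CPM. *Bmp1*, which removes the carboxy-terminal procollagen propeptide, stood at 567, 442 and 248 CPM and its enhancer *Pcolce* at 356, 634 and 776 CPM. Among activators and clearance receptors, *Pcsk5*, a proprotein convertase, stood at 791, 266 and 149 CPM and *Lrp1*, which takes up TIMPs and ADAMTS enzymes, at 525, 455 and 403 CPM.

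Likeness was measured as Pearson's r of log2(CPM + 1) over 22 pools of a class in a library, among 10821 genes that reached 20 CPM in a pool. It is a description, since pools share libraries. *Timp3* was most like *Cavin3* (0.96), *Lama4* (0.95) and *Igfbp7* (0.95), *Adamts1* most like *Mpdz* (0.96), *Lamb2* (0.96) and *Osmr* (0.96), and *Adamts4* most like *Akap12* (0.95), *Syde1* (0.94) and *Ehd2* (0.93). *Adamts2* went with *Cd248* (0.97), *Bgn* (0.97) and *Meg3* (0.96), and *Adamts5* with *Rcn3* (0.96), *Thbs3* (0.95) and *Fstl1* (0.94). *Adamts12* was most like *Pdgfrb* (0.94), *Smarcd3* (0.93) and *Pla2r1* (0.92) and *Adam12* most like *Heg1* (0.96), *Fstl1* (0.93) and *Fbn1* (0.91). *Timp1* had *Ckap4* (0.91) and *P4hb* (0.87), *Timp2* had *Rassf8* (0.87), *Eif4ebp1* (0.86) and *Ano6* (0.86), and *Adamts14* had *Sytl2* (0.81), *Aak1* (0.79) and *Galnt16* (0.78). Among the members themselves *Timp3* and *Adamts1* were the most alike (0.94) and *Timp2* and *Adamts14* the least (0.31).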

How the data were processed

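Skin wound cells of the Day 3, Day 7 and Day 14 libraries were read as the deposited counts, which the authors made with Cell Ranger 6.0.0 on mm10 (per the submitters' processing notes) as unscaled UMI counts; the annotation is not given in the sources used here. The tables held 38133650, 120940799 and 112713257 UMIs in 5158, 22924 and 16611 barcodes. Symbols were matched by Ensembl identifier for 32158 of 32285 genes. Of the barcodes, 40492 passed limits of 200 genes and 500 UMIs (minimum) and 10% mitochondrial UMIs (maximum). Simulated doublets were counted among 50 neighbours, and the highest scores were removed up to 0.5 of a rate of 0.8% per 1000 barcodes (2.07%, 9.17% and 6.65%). Cells were clustered (2000 variable genes, 30 components, 15 neighbours, Leiden resolution 1, leidenalg 0.10.2) without the members, the listed related genes, *Acta2* and mitochondrial and ribosomal genes, giving 30 clusters named from marker lists. UMIs were summed per class and library. With 1 library per day no test was made: genes with a mean of at least 1 CPM were called by a 2-fold size, counts of 3 or fewer were set to 3 in ratios for these calls, and intervals are Poisson, Clopper-Pearson or conditional binomial (scipy 1.17.1). Levels of the 10 members, lists of related genes (the 3 highest of each by mean level) and the 3 genes most like each member are named, and other genes are named after their values were seen; some items are not reported here. A class in a library with under 50 cells was not compared. Members, lists and markers were chosen with earlier results of these data known. The interval code was tested on simulated data. Alternatives are given in the closing section.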

Additional observations from a re-analysis of the deposited data

How the results depend on the processing

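The 8 counts of members past 2-fold were recomputed under scaling, filter, doublet, mitochondrial, clustering and class alternatives. From Day 7 to Day 14 in fibroblast-like cells, members at least 2-fold higher went from 0 to 1 (*Timp3*) with median of ratios, doublets kept, resolution 0.5, each library clustered alone, class from each cell's own markers, and cluster 20 added, and those lower from 1 to 2 (*Adam12* added) under the last 4 of these. Members at least 2-fold lower on Day 7 than on Day 3 went from 1 to 3 (*Adamts4* and *Adamts14* added) with a mitochondrial limit of 5% or 20% and with the full expected doublet rate removed. Members lower in pericyte-like cells on Day 14 went from 5 to 3 (without *Timp1* and *Adam12*) with doublets kept. The other counts stayed within 1.5 times. Cluster 20 was added after the data were seen. Median of ratios moved the median log2 ratio of all genes from -0.17 to 0.01 for Day 7 over Day 3, from -0.17 to -0.01 for Day 14 over Day 7, and in pericyte-like over fibroblast-like cells from 0.42 to -0.01 (Day 7) and 0.26 to -0.09 (Day 14). The log2 ratios that changed sign were those of *Adamts4*, *Adamts5* and *Adamts12* from Day 7 to Day 14 in fibroblast-like cells (-0.13, 0.05 and -0.02) and of *Adam12* in pericyte-like over fibroblast-like cells on Day 7 (-0.21). *Adamts4* was at 0.0353 with median of ratios, 0.0117 and 0.139 with mitochondrial limits of 5% and 20%, 0.152 with the full doublet rate and 0.0243 with libraries clustered alone. *Adamts5* was at -0.0295 with the mean of each cell's CPM, -0.145 and -0.192 with the mitochondrial limits, -0.191 with the full doublet rate and -0.00409 at resolution 2. *Adamts12* was at 0.146 with median of ratios and 0.00348 at resolution 2, and *Adam12* at 0.169 and 0.217 with the mitochondrial limits and 0.321 with the full doublet rate. Ratios of pericyte-like over fibroblast-like cells that moved by over 1.5 times, beside those given above, were *Adamts2* (-2.03 to -1.14) and *Adam12* (-1.31 to -0.67) on Day 14 with doublets kept and *Adamts4* on Day 7 (2.05 to 2.68) with the full doublet rate. The cause was not tested. No paired analysis was possible because each day had 1 library and no test was made. Intervals cover counting error only. Low levels, such as *Adamts14* in pericyte-like or T cell-like cells, rest on 12 to 23 UMIs.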
